A study of Mus musculus with 128 samples.

Results

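The diet by depot interaction in LG/J mice asks whether a high-fat diet shifted each gene's RNA level by a different amount in brown fat than in white fat of the same animals. It is the high-fat minus low-fat difference in brown fat minus the same difference in white fat, on a log2 scale, so a positive value means that high-fat minus low-fat was greater in brown fat. The libraries were every LG/J library except both libraries of animals 351 and 350, which the rule leaves out; this kept 60 of the 128 libraries in the series, and 60 of the 64 of LG/J. They came from 30 animals with 15 libraries in each of 4 groups: interscapular brown adipose tissue on the high-fat diet, the same tissue on the low-fat diet, and reproductive white adipose tissue on each diet. All were mice of the inbred strain LG/J, of both sexes, aged 20 or 30 weeks, with no engineered allele and no other treatment named in the labels. The labels give neither the composition of the diets nor the reason for leaving out the 2 animals, and the number shared by a brown and a white library was taken to be the animal. Animal 351 was a 20-week male on the high-fat diet and animal 350 a 20-week female on the low-fat diet. The remaining libraries of the series belong to the strain SM/J and to those 2 animals and were not used in the comparison.

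Brown adipocytes burn fatty acids and glucose in abundant mitochondria, where the uncoupling protein Ucp1 lets protons back across the inner membrane and releases heat. White adipocytes store triglyceride in a large droplet and secrete hormones such as leptin and adiponectin, and their tissue also holds macrophages, fibroblasts and vessels. Sterol synthesis is controlled by the transcription factor SREBP2, which the protein Insig1 holds back in the endoplasmic reticulum when sterols are plentiful.

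The totals of the deposited normalised counts ran from 18305849 to 21444192 per library (median 20105228), and 12292 genes were listed in all 4 tables, none on the X, Y or mitochondrial chromosomes. Each table holds 1 diet in 1 depot and was filtered and scaled by itself, so diet and table cannot be told apart. The values were therefore rescaled together by the median ratio to the mean library, with factors from 0.852 to 1.16. In brown fat the factors of the diets did not overlap, at 0.852 to 0.885 on the high-fat diet and 0.893 to 0.940 on the low-fat diet. In white fat they overlapped. Summed brown and thermogenic adipocyte genes (14 of 20 tested) ran from 185080 to 394792 in brown fat and from 6266 to 24269 in white fat, as the tissue labels say. T and NK cell and epididymis or testis markers had no member in all 4 tables, and mesothelial markers had 1. In single libraries other cell types were high. The low-fat brown fat of animal 524 had a summed macrophage level (21 markers, Lpl set aside as an adipocyte gene) of 60821 against 23099 for the next library of its group, and the highest summed level of 5 skeletal muscle markers in brown fat was 15197 on the high-fat diet (animal 517) and 13635 on the low-fat diet (animal 349), against group medians of 1834 and 1819.

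**Figure D1:**
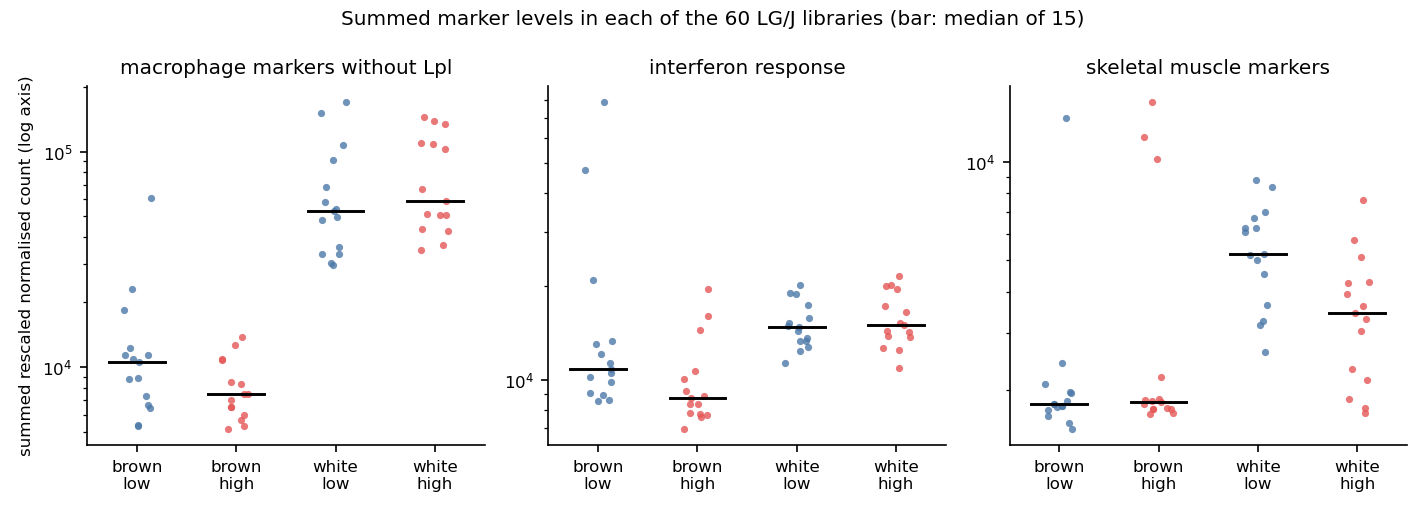
Summed rescaled normalised counts (log axis) of 21 macrophage markers, 21 interferon response genes and 5 skeletal muscle markers in each of the 60 libraries, blue for low-fat and red for high-fat, with the median of 15 as a bar. The macrophage sum of the low-fat brown fat of animal 524, at 60821, lies above every other brown fat library.

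Of the 12292 genes, 1450 (11.8%) passed the interaction test (limma, Benjamini-Hochberg adjusted p under 0.05), 725 of them positive (5.9%) and 725 negative (5.9%). The count rests on the animals used: with all 32 LG/J animals it was 728, of which 714 were among the 1450, and leaving out 1 further animal at a time gave between 1041 (without animal 688) and 1904 (without animal 537). It also rests on treating the brown and white libraries of 1 number as a pair: without that block 800 genes passed, 439 positive and 361 negative. With the deposited scale kept, 1635 passed, but 524 positive against 1111 negative, so the even split belongs to the joint rescaling. The interaction was mostly modest in size, with a median of 0.41 in absolute log2 among the genes that passed.

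In most genes past the interaction threshold the fitted diet differences of the depots had opposite signs, in 1240 of 1450 (85.5%, against 43% of all genes), a share that the choice of genes by the interaction favours. The diet effect tested in each depot alone passed for 1585 genes in white fat (12.9%; 796 higher on the high-fat diet, 6.48%, and 789 lower, 6.42%) and for 863 in brown fat (7.02%; 517 higher, 4.21%, and 346 lower, 2.81%). With all 32 animals these were 631 in white fat and 737 in brown fat, and without animal 537 white fat reached 3126. The split in brown fat followed the scaling, with 23.5% higher on the deposited scale and 43.6% under upper quartile scaling against 59.9% here; in white fat it was 39.6% and 36.6% against 50.2%. Of the 1450 interaction genes, 503 passed in white fat and not in brown fat, 334 in brown fat and not in white fat, 24 in both and 589 in neither. The white and brown fat tests have the same number of libraries, and a gene past the threshold in 1 depot only is not by that shown to differ between depots; the interaction is the test of that difference.

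**Figure D2:**
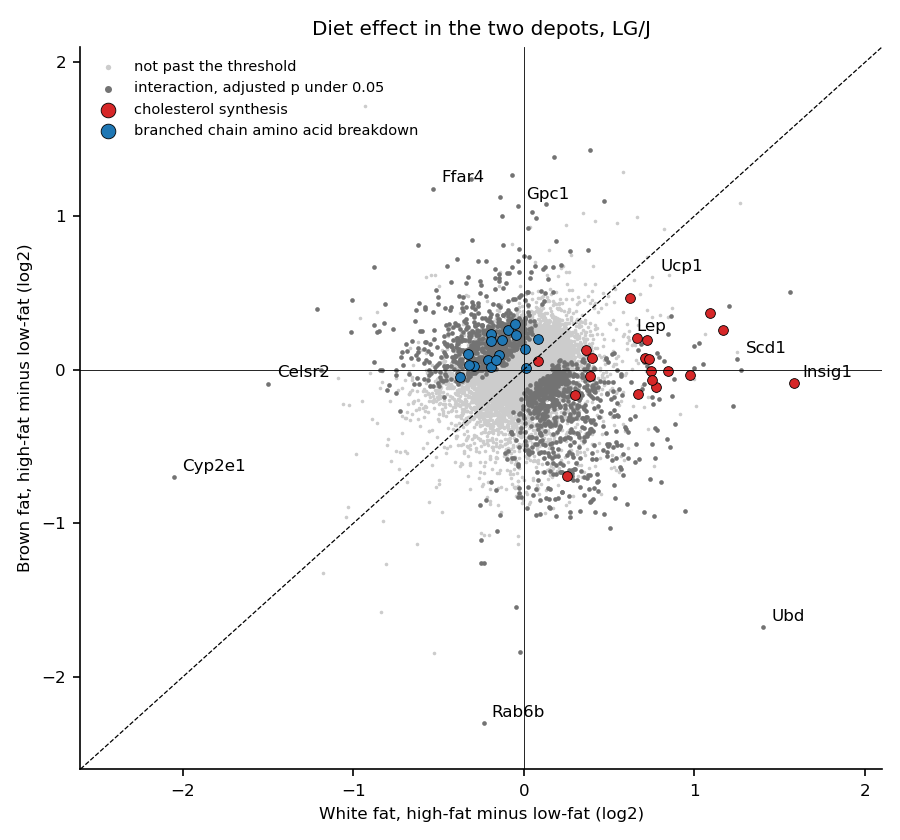
High-fat minus low-fat difference (log2) in white fat on the horizontal axis and in brown fat on the vertical axis for the 12292 genes, dark grey where the interaction passed the threshold; the dashed line marks equal effects. Of the 20 cholesterol synthesis genes (red) all lie to the right of the dashed line, and 19 of them passed as higher on the high-fat diet in white fat.

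Genes of sterol synthesis rose in white fat on the high-fat diet, with few passing in brown fat, and this list had the largest share of tested members past the interaction threshold of the 36 lists examined. Of 20 tested genes of the cholesterol synthesis list (23 in all; 3 were not in all 4 tables), 15 had a negative interaction past the threshold, against 5.9% of all genes, and none a positive one, with a median of -0.69 against -0.0046 over all genes. In white fat 19 of the 20 rose on the high-fat diet (median 0.71), against 6.48% of all genes. In brown fat 1 rose and 1 fell (median 0.02), against 4.21% and 2.81% of all genes. With all 32 animals the interaction passed for 11 and the white fat effect for 16, and without the animal block the interaction passed for 9. Leaving out 1 animal at a time gave 12 (without animal 625) to 17. The members were chosen with such results known, so the count describes these libraries.

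Insig1, the sterol-sensing anchor of SREBP2 (chromosome 5, 28071363 to 28078662, build mm10), carried the interaction with the smallest adjusted p of any gene. Its rescaled count in white fat was lowest 2038, median 3178 and highest 5157 on the low-fat diet, and 6106, 10110 and 15092 on the high-fat diet. The white fat groups did not overlap, which held for 3 of the 12292 genes (0.0244%). In brown fat it was 6372, 8828 and 23855 on the low-fat diet and 6924, 9180 and 14430 on the high-fat diet, with ranges that overlapped almost wholly. The white fat difference was 1.59 ± 0.15 (log2, SE; adjusted p = 8e-08, limma) and the brown fat difference -0.09 ± 0.15 (adjusted p = 0.74), giving an interaction of -1.67 ± 0.20 (adjusted p = 3.56e-05). Within animals, brown minus white ran from 0.89 to 2.90 on the low-fat diet and from -0.91 to 0.65 on the high-fat diet. Those within-animal ranges did not overlap, which held for 1 of the 12292 genes (0.00814%).

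The enzymes along the pathway followed with smaller differences. Lss, which closes the sterol ring, had white fat levels of lowest 478, median 948 and highest 1548 on the low-fat diet against 961, 1797 and 2851 on the high-fat diet, and the ranges overlapped. Its interaction was -1.01 ± 0.18 (adjusted p = 0.00121, limma), with all 15 high-fat animals below the low-fat median of brown minus white. Fdft1, the squalene synthase, differed from the rest because the brown fat part was the larger. Its brown fat levels were 3071, 5097 and 9942 on the low-fat diet and 1886, 3471 and 5773 on the high-fat diet. It fell by 0.69 in brown fat (SE 0.14; adjusted p = 0.00336) and rose by 0.25 in white fat (SE 0.08; adjusted p = 0.0337), giving -0.94 ± 0.13 (adjusted p = 7.18e-05).

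Some members, named after their values were seen, lay at the edge of the pattern. Hmgcs1, an early enzyme of the mevalonate route, rose in both depots, by 0.62 in white fat (adjusted p = 0.00666) and by 0.47 in brown fat (adjusted p = 0.0114), and its interaction of -0.15 ± 0.15 did not pass (adjusted p = 0.552). Srebf2, which encodes SREBP2, was the 1 member with no white fat call, at 0.08 (adjusted p = 0.414).

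Promoters of 4 members are shown because the genes moved together in white fat and differ in the interaction, which passed for Insig1, Lss and Idi1 and did not for Hmgcs1. They are RefSeq sequences of build GRCm38.p6, the 250 bases before the annotated start, 5′ to 3′ on the plus strand, at chr5:28071162-28071411 (Insig1), chr10:76531355-76531604 (Lss), chr13:8885356-8885605 (Idi1) and chr13:119690101-119690350 (Hmgcs1). Capitals mark matches, on either strand, to the letters CCAAT (the box bound by NF-Y; ATTGG on the other strand), TCACNCCAC (from the sterol regulatory element) and CACGTG (an E-box).
Insig1 promoter: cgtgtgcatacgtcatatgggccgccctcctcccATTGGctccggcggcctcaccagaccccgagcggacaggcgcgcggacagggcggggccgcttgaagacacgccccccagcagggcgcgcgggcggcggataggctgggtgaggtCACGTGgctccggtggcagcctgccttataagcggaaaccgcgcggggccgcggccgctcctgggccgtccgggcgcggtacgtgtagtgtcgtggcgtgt
Lss promoter: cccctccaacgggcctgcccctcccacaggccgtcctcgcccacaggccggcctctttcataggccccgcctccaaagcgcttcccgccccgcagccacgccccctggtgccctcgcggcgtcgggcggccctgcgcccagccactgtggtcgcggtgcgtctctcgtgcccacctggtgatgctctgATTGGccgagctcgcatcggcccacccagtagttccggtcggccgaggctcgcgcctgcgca
Idi1 promoter: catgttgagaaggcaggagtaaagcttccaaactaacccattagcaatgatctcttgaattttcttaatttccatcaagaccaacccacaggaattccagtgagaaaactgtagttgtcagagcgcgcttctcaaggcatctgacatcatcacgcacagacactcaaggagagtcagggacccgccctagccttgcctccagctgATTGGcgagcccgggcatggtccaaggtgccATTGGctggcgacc
Hmgcs1 promoter: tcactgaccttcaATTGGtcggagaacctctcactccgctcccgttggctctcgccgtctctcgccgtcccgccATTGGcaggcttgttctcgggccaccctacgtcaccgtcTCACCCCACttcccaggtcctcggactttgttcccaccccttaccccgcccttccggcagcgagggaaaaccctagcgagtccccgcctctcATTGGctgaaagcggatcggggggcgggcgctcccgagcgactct

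RefSeq entries were matched for 13 of the 20 tested genes of the list. A CCAAT match lay in 11 of these 13 (84.6%) against 33.8% of all 32851 promoters of the same length, a TCACNCCAC match in 1 (7.69% against 1.05%) and a CACGTG match in 2 (15.4% against 6.02%). The motifs were picked after the interaction results were known, no motif overlaps another in the sequences shown, and a match says only that the letters stand in the window. Hmgcs1 holds 3 ATTGG matches and the 1 TCACCCCAC match, while Insig1 holds 1 ATTGG and the CACGTG.

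The fatty acid desaturases Fads1, Fads2 and Scd1 rose in white fat and passed the interaction test (Scd1 not after quantile normalization), and the fatty acid synthase Fasn passed neither. Of 25 tested genes of fatty acid and triglyceride synthesis (26 in all), 10 had a negative interaction past the threshold, against 5.9% of all genes. None had a positive one, and the median was -0.52. In white fat 7 rose and 1 fell, against 6.48% and 6.42% of all genes. With all 32 animals 6 had a negative interaction, and without the animal block 4. Fads2, the delta-6 desaturase, had white fat levels of lowest 253, median 348 and highest 493 on the low-fat diet and 466, 748 and 1107 on the high-fat diet, ranges that met only at their ends. In brown fat it ran from 65.0 to 218 and from 91.7 to 221. Its interaction was -1.02 ± 0.14 (adjusted p = 6.15e-05, limma), and that of Fads1, the delta-5 desaturase near it on chromosome 19, was -0.70 ± 0.11 (adjusted p = 0.000203). Both had all 15 high-fat animals below the low-fat median of brown minus white.

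Scd1, the stearoyl-CoA desaturase that makes oleate, rose by 1.25 ± 0.20 in white fat (adjusted p = 0.000387, limma) and had 0.07 ± 0.22 in brown fat (adjusted p = 0.87). The white fat call was lost after quantile normalization, which gave 0.52 (adjusted p = 0.132). Its white fat counts were 122951, 454034 and 745159 on the low-fat diet and 554691, 965489 and 1291210 on the high-fat diet, so that the high-fat white fat reached the brown fat medians of 892519 and 883381. The interaction of -1.18 ± 0.27 (adjusted p = 0.00573) was lost in the same way, at -0.65 (adjusted p = 0.114) after quantile normalization. Fasn, the fatty acid synthase, spread widely in brown fat, from 94307 to 901569 on the low-fat diet and from 51140 to 643509 on the high-fat diet. Its interaction of -0.58 ± 0.39 did not pass (adjusted p = 0.341), nor did its diet effect in brown fat (-0.66, adjusted p = 0.27) or in white fat (-0.08, adjusted p = 0.849).

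**Figure D3:**
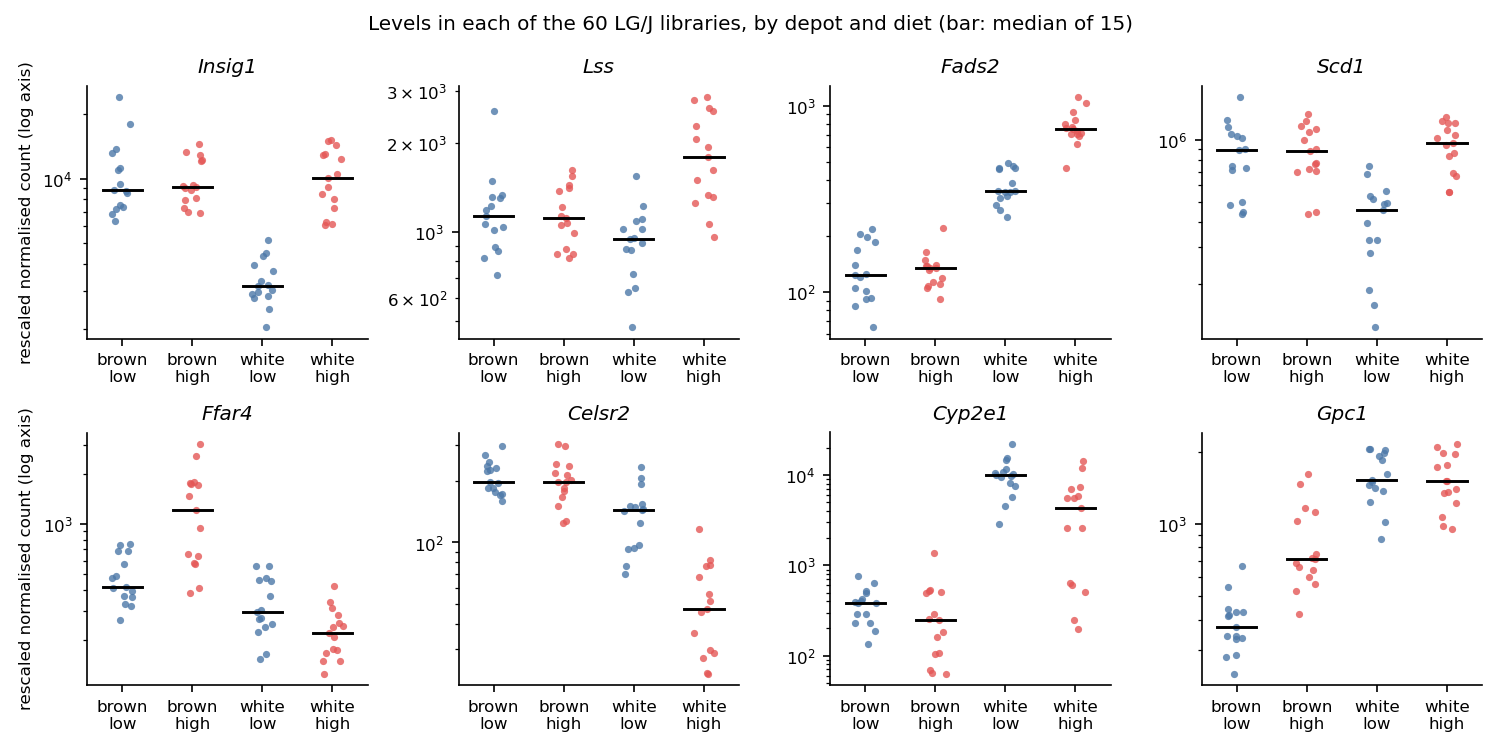
Rescaled normalised count (log axis) of 8 genes in each of the 60 libraries by depot and diet, with the median of 15 as a bar. Insig1, Lss, Fads2 and Scd1 differ between diets in white fat and overlap widely in brown fat; Ffar4 and Gpc1 differ in brown fat, and Celsr2 and Cyp2e1 are lower in white fat on the high-fat diet.

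Breakdown of branched chain amino acids went the opposite way. These mitochondrial enzymes oxidise leucine, isoleucine and valine, which brown fat uses as fuel. Of 17 tested genes of the list (19 in all), 11 had a positive interaction past the threshold, against 5.9% of all genes, and none a negative one, with a median of 0.32. The count rests on single animals: it was 4 without animal 319, 481, 483 or 619 and 5 without animal 524, and at most 12, while the median stayed between 0.27 and 0.36. The median diet effect was 0.10 in brown fat, where 5 rose, against 4.21% of all genes. In white fat it was -0.16 and 2 fell, against 6.42% of all genes. With all 32 animals, and also without the animal block, the interaction passed for 6. On the deposited scale it passed for 5 and after quantile normalization for 6, with medians of 0.29 and 0.25.

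Mccc1, a subunit of the leucine-pathway carboxylase, had white fat levels of lowest 759, median 989 and highest 1298 on the low-fat diet and 642, 764 and 1023 on the high-fat diet, and overlapping brown fat levels of 1388, 1596 and 1974 against 1242, 1845 and 2153. Its interaction was 0.43 ± 0.09 (adjusted p = 0.00263, limma), with all 15 high-fat animals above the low-fat median of brown minus white. Pcca and Pccb, the subunits of propionyl-CoA carboxylase, had interactions of 0.42 ± 0.09 (adjusted p = 0.00472) and 0.35 ± 0.08 (adjusted p = 0.00887). Both rose in brown fat, by 0.23 (adjusted p = 0.017) and 0.26 (adjusted p = 0.00347).

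A minority of oxidative genes rose in brown fat by small amounts. In brown fat 7 of 17 genes of the tricarboxylic acid cycle, 7 of 21 of fatty acid oxidation and 5 of 37 of the respiratory chain rose and none fell, against 4.21% higher over all genes. In white fat 5 genes of fatty acid oxidation rose and 1 fell, against 6.48% and 6.42% of all genes. None of the cycle or the chain passed there. The brown fat counts depended on the scaling, at 3, 3 and 2 on the deposited scale and 2, 2 and 1 after quantile normalization. Leaving out 1 animal at a time gave 3 (without animal 592) to 9 (without 534, 625 or 709) for the cycle, 3 (without 481 or 592) to 9 (without 534, 623, 625 or 690) for oxidation and 4 to 8 (without 625) for the chain; without animal 524 they were 4, 4 and 5. The interaction was positive for 2, 2 and 0 of the genes and negative for none, against 5.9% of all genes each way. Without animal 534 it was positive for 7, 3 and 4. The respiratory chain still lay above 0 for 34 of 37, with a median of 0.11. Mdh2, the mitochondrial malate dehydrogenase, rose in brown fat by 0.33 (adjusted p = 0.00692, limma) and had an interaction of 0.36 ± 0.08 (adjusted p = 0.00548). Ppara, a nuclear receptor that drives fat oxidation, had an interaction of 0.57 ± 0.16 (adjusted p = 0.0206, limma). It fell by 0.39 in white fat (adjusted p = 0.0453), a call not varied over animals or scalings. Ldhb, a lactate dehydrogenase subunit, rose in brown fat by 0.28 (adjusted p = 0.0116) and had an interaction of 0.53 ± 0.10 (adjusted p = 0.00172).

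**Figure D4:**
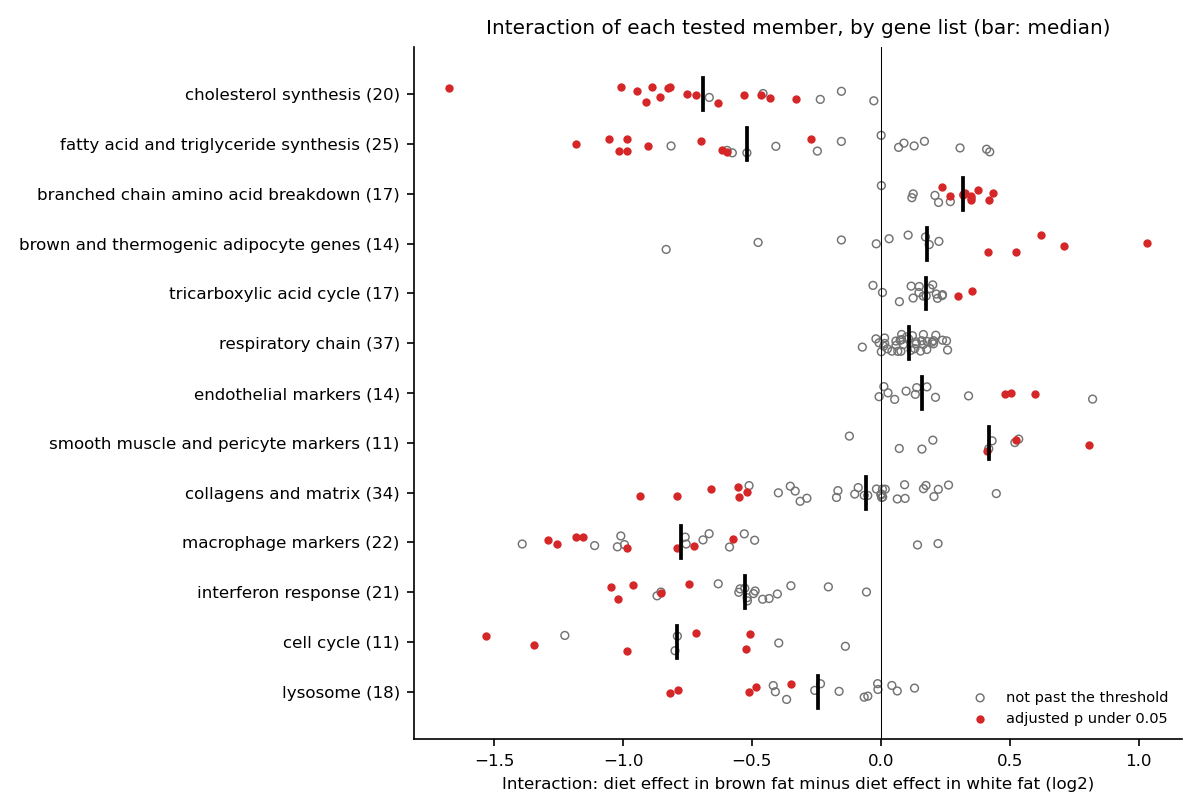
Interaction (log2) of every tested member of 13 gene lists, red where adjusted p was under 0.05, with the list's median as a bar and the number tested in brackets. Cholesterol synthesis, macrophage markers and the cell cycle lie mostly below 0 and branched chain amino acid breakdown above 0, while the respiratory chain clusters just above 0 with none past the threshold.

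A minority of brown and thermogenic genes passed with a positive interaction, and the heat-producing protein Ucp1 did not pass. Of 14 tested brown and thermogenic genes (20 in all), 5 were positive past the threshold, against 5.9% of all genes, and none negative. Of the 14, 4 lay below 0 (median 0.18). With 1 animal left out at a time 4 (without animal 619) to 5 were positive. Without animal 524 the median was 0.09 and 1 member was negative past the threshold. Prdm16, a transcriptional co-regulator that specifies brown and beige adipocytes, had brown fat levels of lowest 353, median 558 and highest 882 on the low-fat diet and 519, 716 and 1205 on the high-fat diet. In white fat it had 75.7, 100.4 and 137 against 48.0, 81.0 and 144, and the diets overlapped in both depots. Its interaction was 0.71 ± 0.13 (adjusted p = 0.00155, limma). Ppargc1b, a co-activator of mitochondrial genes, had 0.62 ± 0.14 (adjusted p = 0.00642), and Ebf2, a factor that marks brown precursors, 0.41 ± 0.10 (adjusted p = 0.0118). Adrb3, the beta-3 adrenergic receptor, rose in brown fat by 0.52 (adjusted p = 0.0146) and had an interaction of 1.03 ± 0.27 (adjusted p = 0.0143). It was 0.26 in females and 1.83 in males, a difference that did not pass the test by sex.

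Ucp1 rose in brown fat on the high-fat diet by 0.60 ± 0.14 (adjusted p = 0.00803, limma). Its brown fat counts were lowest 63150, median 96516 and highest 176525 on the low-fat diet and 99567, 147753 and 218647 on the high-fat diet, with overlap. In white fat it was low and spread widely between libraries on each diet, from 6.70 to 1210 on the low-fat diet and from 23.8 to 3255 on the high-fat diet. The interaction of -0.15 ± 0.68 (adjusted p = 0.912) therefore had a wide error, and its sign turned when any of 5 animals was left out. Cidea, a lipid droplet protein of brown fat, had an interaction of 0.19 ± 0.32 (adjusted p = 0.749).

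White adipocyte genes lay mostly above 0 in the interaction, and 2 hormones moved in different directions in white fat. Of 11 tested genes (17 in all), 10 lay above 0 (median 0.28). Past the threshold 2 were positive, against 5.9% of all genes, and none negative. In white fat 4 fell and 1 rose (median -0.23), against 6.42% and 6.48% of all genes. With 1 animal left out at a time 1 (without animal 403 or 625) to 6 fell there. Lep, which encodes leptin, rose there by 0.61 ± 0.20 (adjusted p = 0.0458, limma), from 21902, 57996 and 127232 on the low-fat diet to 38255, 96075 and 121578 on the high-fat diet. The call was lost with all 32 animals (0.59, adjusted p = 0.0637) and when any of 20 animals was left out, and the interaction of -0.40 ± 0.29 did not pass (adjusted p = 0.389). Adipoq, which encodes adiponectin, fell in white fat by 0.54 ± 0.16 (adjusted p = 0.0293), from 24172, 53282 and 70907 to 13814, 48677 and 92279, so the ranges overlapped and the medians lay close. Its interaction was 0.64 ± 0.16 (adjusted p = 0.0125); with all 32 animals it was 0.52 (adjusted p = 0.0618). The white fat call was lost with all 32 animals (-0.44, adjusted p = 0.11) and without animal 625 (adjusted p = 0.0579), 344 (0.0534) or 403 (0.0514). Car3, a carbonic anhydrase abundant in fat, fell in white fat by 0.75 ± 0.19 (adjusted p = 0.0135), with an interaction of 0.71 ± 0.18 (adjusted p = 0.0105) that was 0.52 with all 32 animals (adjusted p = 0.136).

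The largest positive interaction belonged to Ffar4 (chromosome 19, 38097071 to 38114263), the cell surface receptor for long-chain fatty acids, also called Gpr120. Its brown fat counts were lowest 262, median 416 and highest 761 on the low-fat diet and 382, 1203 and 3027 on the high-fat diet. In white fat they were 153, 296 and 560 against 125, 218 and 423, and the diets overlapped in both depots. It rose in brown fat by 1.18 ± 0.25 (adjusted p = 0.00495, limma) and fell in white fat by 0.53 ± 0.17 (adjusted p = 0.0405); the white fat call was lost with all 32 animals (adjusted p = 0.107) and when any of 15 animals was left out. The interaction was 1.71 ± 0.28 (adjusted p = 0.000431) and remained past the threshold with each of the 30 animals left out. It was 1.16 at 20 weeks and 2.25 at 30 weeks, a difference that did not pass the test by age (adjusted p = 0.999). Rbp4, the retinol carrier that lies next to it on chromosome 19 (38116629 to 38125281), rose in brown fat by 0.67 ± 0.16 (adjusted p = 0.0134) and had an interaction of 1.12 ± 0.20 (adjusted p = 0.00121).

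The other large positive interactions were split between the depots. Celsr2, a cadherin of the planar polarity family, was at 69.9, 145 and 235 in white fat on the low-fat diet and at 22.8, 47.1 and 116 on the high-fat diet, and fell there by 1.5 ± 0.19 (adjusted p = 1.17e-05, limma). Brown fat was level, with medians of 198 and 199, and the interaction was 1.41 ± 0.18 (adjusted p = 3.96e-05). Cyp2e1, a cytochrome P450 that oxidises ethanol and ketones, fell in white fat by 2.05 ± 0.48 (adjusted p = 0.0096), from 2886, 10198 and 22266 to 195, 4297 and 14302. Its interaction of 1.35 ± 0.30 (adjusted p = 0.00478) did not pass without the animal block (adjusted p = 0.147). With the block as an estimated correlation it did not pass either (adjusted p = 0.0805, limma). Gpc1, a heparan sulphate proteoglycan, rose in brown fat by 1.07 ± 0.16 (adjusted p = 0.000251), with an interaction of 1.10 ± 0.15 (adjusted p = 6.18e-05).

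Among genes with a mean of at least 5 CPM and 1 sign in both sexes and at both ages, another 6 of the 12 largest positive were Apold1 (1.26), Pla2g2d (1.24), Slc25a34 (1.21), Popdc2 (1.12), Slc25a48 (1.11) and Ccn3 (1.10). Of these, Apold1 and Slc25a34 rose in brown fat, and Pla2g2d, Popdc2, Slc25a48 and Ccn3 fell in white fat. Slc25a34, a mitochondrial carrier, lost its interaction call when any of 14 animals was left out (adjusted p up to 0.0669, limma) and without the block (0.102). That call was also lost with the block as an estimated correlation (0.0562) and after quantile normalization (0.0576). Apold1 lost its interaction call without animal 276 (0.0549), 625 (0.0548), 509 (0.0535) or 483 (0.05002). The calls in 1 depot alone were lost when any of 10 animals was left out for Apold1, any of 17 for Slc25a34 and any of 11 for Pla2g2d. With all 32 animals the white fat calls of Pla2g2d (adjusted p = 0.151) and Slc25a48 (0.0908) were lost.

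Under the same limits on level and sign, the 12 largest negative interactions included Insig1, described with sterol synthesis. Ubd, a ubiquitin-like protein induced by inflammatory cytokines, had the most negative value, -3.08 ± 0.55 (adjusted p = 0.00121, limma). In brown fat it was at 9.22, 90.3 and 1480 on the low-fat diet and 3.65, 25.7 and 105 on the high-fat diet, and in white fat at 81.3, 330 and 1021 against 105, 626 and 2609. It rose in white fat by 1.4 (adjusted p = 0.0307), a call lost with all 32 animals (adjusted p = 0.0809) and when any of 7 animals was left out, and had -1.67 in brown fat (adjusted p = 0.0553). Chil1 (-1.86), a chitinase-like protein, Clec12a (-1.63), a myeloid lectin, and Cxcl9 (-1.49), an interferon-induced chemokine, also passed in the interaction, but in neither depot alone. Chil1 did not pass with all 32 animals (adjusted p = 0.0691), and Cxcl9 did not pass without the block (0.0878) or without animal 592 (0.0581), 688 (0.0546) or 587 (0.0505).

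The others were Rab6b, Ramp1, Lctl, Gadd45b, Basp1, Aldh1a7 and Serpinb6b. Rab6b, a small GTPase of vesicle transport, fell in brown fat by 2.30 ± 0.42 (adjusted p = 0.00164, limma), from 245, 502 and 884 to 5.6, 144 and 291, and had an interaction of -2.06 ± 0.54 (adjusted p = 0.015). Ramp1, a partner of the calcitonin-like receptor for the peptide CGRP, fell in brown fat by 1.84 (adjusted p = 0.0114) and had an interaction of -1.81, which with all 32 animals was -1.52 (adjusted p = 0.103). Lctl, a klotho relative, moved in opposite directions, rising in white fat by 0.76 ± 0.14 (adjusted p = 0.00114) and falling in brown fat by 0.95 ± 0.27 (adjusted p = 0.0286), with an interaction of -1.72 ± 0.25 (adjusted p = 0.000126). Its brown fat call was lost without animal 481 (adjusted p = 0.0524) or 592 (0.0516). Aldh1a7, an aldehyde dehydrogenase, rose in white fat by 1.23 (adjusted p = 0.000199), with an interaction of -1.46 ± 0.26 (adjusted p = 0.000984). Gadd45b, a stress response gene, fell in brown fat by 1.03 (adjusted p = 0.0295), a call lost without animal 592 (0.0527), 537 (0.0510) or 517 (0.0504). Basp1 (-1.47) and Serpinb6b (-1.45) passed in the interaction and in neither depot alone.

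Macrophage markers lay mostly below 0 (20 of 22), and the number past the threshold depended on the animals and on the block. Of 22 tested members (29 in all), 8 had a negative interaction past the threshold, against 5.9% of all genes, and none a positive one (median -0.77), and no member passed in either depot alone. Over all 32 animals 2 passed, without animal 524, whose brown fat held the highest macrophage sum, 6 passed (median -0.58), without animal 533 2 passed, without animal 537 13 passed and without animal 482, whose white fat was high, 14 passed, the ends of the range over the 30 animals being 2 and 14. Without the animal block none passed. Adgre1, which encodes the macrophage surface protein F4/80, had brown fat levels of lowest 187, median 418 and highest 1929 on the low-fat diet and 168, 271 and 1267 on the high-fat diet. In white fat it had 921, 1711 and 8142 against 1105, 2461 and 6613, with wide overlap in both depots. Its interaction was -1.18 ± 0.29 (adjusted p = 0.0101, limma; 0.0635 without the block), and 14 of 15 high-fat animals lay below the low-fat median of brown minus white. Mrc1, the mannose receptor, had -0.57 ± 0.16 (adjusted p = 0.0188; 0.0652 without the block). The median summed macrophage level was 10537 on the low-fat diet and 7456 on the high-fat diet in brown fat, and 53133 and 58666 in white fat. In these tissue pieces, more or fewer cells of a type and more or less RNA per cell cannot be told apart.

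Interferon response and cell cycle genes lay on the same side. Of 21 tested interferon response genes all lay below 0, as did 51.1% of all genes. Their median was -0.53 and 5 passed (8 on the deposited scale), against 5.9% of all genes with a negative interaction past the threshold. In brown fat 4 fell, against 2.81% of all genes, and in white fat 1 fell, against 6.42%. The low-fat brown fat of animal 524 had a summed interferon response level of 78418 against 13345 for the next library of the same diet, age and sex. Over all low-fat brown fat libraries the next was that of animal 592, a 20-week female, at 47384. Without animal 524 the median was -0.35, with 5 passing and 3 falling in brown fat. Leaving out 1 animal at a time gave 4 to 9 (without 690) for the interaction and 3 to 10 (without 349 or 619) falling in brown fat. Over all 32 animals 4 passed, and without the block none. Ifi44, an interferon-induced protein, fell in brown fat by 1.11 (adjusted p = 0.0134, limma) and had an interaction of -0.85 ± 0.23 (adjusted p = 0.0173; 0.0887 without the block). Rsad2, the antiviral enzyme viperin, had -1.05 ± 0.27 (adjusted p = 0.0145; 0.0771 without the block). Of 11 tested cell cycle genes (25 in all), 3 rose in white fat, against 6.48% of all genes. All 11 lay below 0 in the interaction as well (median -0.79) and 6 passed, against 5.9% of all genes. The count was 3 with all 32 animals and also without the block. Leaving out 1 animal at a time gave 3 (without animal 524 or any of 10 others) to 9 (without 342, 534 or 537), and between 0 (without 533, 613 or 625) and 8 (without 537) rising in white fat. Cdk1, the kinase that starts mitosis, rose in white fat by 0.80 ± 0.24 (adjusted p = 0.0297), from 29.5, 109 and 190 to 58.9, 170 and 265, and its interaction was -1.53 ± 0.33 (adjusted p = 0.00475). Mki67, the proliferation marker, had -1.23 ± 0.45, which did not pass (adjusted p = 0.0696). The macrophage sums of the groups are those given with Adgre1; whether the macrophage level accounts for the interferon or cell cycle values was not tested.

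Some vessel genes had positive interactions. Against 5.9% of all genes, of 14 tested endothelial markers 3 were positive past the threshold and none negative (median 0.16), and of 11 smooth muscle and pericyte markers 3 were positive and none negative (median 0.42). These counts were 3 and 1 with all 32 animals, and with 1 animal left out at a time 3 to 4 and 2 to 4. Eng, the endothelial co-receptor endoglin, fell in white fat by 0.39 ± 0.12 (adjusted p = 0.0341, limma), with 1106, 1508 and 2636 on the low-fat diet and 908, 1153 and 1798 on the high-fat diet. Its interaction was 0.60 ± 0.12 (adjusted p = 0.00263). Flt1 and Kdr, the receptors for vascular endothelial growth factor, had interactions of 0.48 ± 0.11 (adjusted p = 0.0076) and 0.50 ± 0.13 (adjusted p = 0.0118). Vegfa, the growth factor itself, fell in white fat by 0.65 ± 0.19 (adjusted p = 0.0285), from 2044, 4719 and 13397 to 1631, 2994 and 4657, and had an interaction of 0.84 ± 0.20 (adjusted p = 0.00989). Myl9, a smooth muscle light chain, fell in white fat by 0.68 ± 0.15 (adjusted p = 0.00525), with an interaction of 0.81 ± 0.16 (adjusted p = 0.00275). Pecam1, a defining endothelial marker named after its value was seen, had an interaction of -0.01 (adjusted p = 0.976), and the summed endothelial level had medians of 25506 on the low-fat diet and 26964 on the high-fat diet in brown fat and 26785 and 24638 in white fat.

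Matrix and lysosome genes had a minority past the threshold. Against 5.9% of all genes, of 34 tested collagens and matrix genes 6 were negative and none positive (median -0.06), and of 18 lysosome genes 5 were negative and none positive (median -0.25), which with all 32 animals was 5 and 1 and without the block 5 and 2. Leaving out 1 animal at a time gave 5 to 8 and 3 to 7, both highest without animal 537 (animal 342 also gave 8). Lum, the collagen-binding proteoglycan lumican, rose in white fat by 0.75 ± 0.22 (adjusted p = 0.0268, limma), with an interaction of -0.93 ± 0.21 (adjusted p = 0.00637). Postn, the matrix protein periostin, rose there by 0.52 (adjusted p = 0.0204), with an interaction of -0.66 ± 0.16 (adjusted p = 0.00813). Col1a1, a chain of type I collagen, had 0.06 ± 0.20 (adjusted p = 0.869), with differences of -0.38 in brown fat (adjusted p = 0.0227) and -0.45 in white fat (adjusted p = 0.0796). Npc2, which carries cholesterol out of lysosomes, rose in white fat by 0.69 ± 0.13 (adjusted p = 0.00143), from 10594, 12922 and 21839 to 13403, 19497 and 40187, and had an interaction of -0.82 ± 0.16 (adjusted p = 0.00243). All 15 high-fat animals lay below the low-fat median of its brown minus white level.

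The interaction differed between the sexes for 1 gene (0.00814%) and between the ages for none (0%), with 1056 and 327 genes at an unadjusted p under 0.05 (limma). Reproductive fat is a different pad in the sexes, which is why the test was made. Myo10, an unconventional myosin of cell protrusions, had an interaction of 0.50 in females and -0.28 in males, a male minus female difference of -0.78 (adjusted p = 0.0164); with upper quartile scaling it was -0.75 (adjusted p = 0.0772). Fitted alone, females gave 179 genes, males 136, animals of 20 weeks 1 and animals of 30 weeks 134. These smaller fits have fewer animals, and the counts do not show that the ages or sexes differ. Among the sterol synthesis genes, Insig1, Lss and Fdft1, named for their small p, were negative in all 4 fits. Insig1 was at -1.45 in females, -1.88 in males, -1.36 at 20 weeks and -1.93 at 30 weeks. Its naming among the largest interactions required 1 sign in all 4 fits, so that agreement was fixed by the choice. The 4 fits of the other sterol synthesis genes are not reported here.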

How the data were processed

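RNA was sequenced from RiboZero libraries of total RNA with an integrity number above 7.5, per the labels' protocols. The values are the authors' deposited normalised counts per gene (a signal that is never negative, not whole reads), in 4 LG/J tables filtered and scaled separately; STAR 2.6.0c, edgeR and the mm10 build are named in the submitters' processing notes, and the annotation is not given in the sources used here. Gene IDs were matched to GENCODE symbols and coordinates of the same build; 102 of 12292 had no symbol.

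The tables were joined on the 12292 shared genes, each library was divided by its median ratio to the geometric mean library, and log2(value + 1) was fitted with limma 3.58.1 (R 4.3.3) with variance trend, the animal as a block and sex and age each crossed with depot. Diet effects in 1 depot used its 30 libraries with sex and age. Tests were two-sided, adjusted by Benjamini-Hochberg over all genes, with a threshold of 0.05. A fold on the log2(value + 1) scale understates changes of low genes. The code was tested on simulated data. No read counts are given, so counting error is unknown. Means of deposited tables started near 17 per gene, so low genes are missing.

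Same-numbered libraries were checked by correlating their deviations from group means: over 30 pairs it ran from -0.264 to 0.488 (median 0.115), 23 were above 0, 18 above 0.1, and 18 of 30 libraries correlated best with their own number. The pairing comes from the numbers in the titles, which the rule takes as animals.

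Named were the 12 largest positive and 12 largest negative interactions past the threshold with a mean of at least 5 CPM (of the library total), 1 sign in both sexes and at both ages and a named gene, up to 3 members with the smallest p of each list, and 9 followed genes. The members and lists were chosen with earlier results of these data known. Alternatives covered scaling, pseudocount, low-level filter, block, moderation, animals, sexes and ages. Single-gene diet effects in 1 depot were varied only for the largest interactions and the followed genes. The white fat calls of Ppara, Cdk1, Eng, Vegfa and Lum, among others, were therefore not varied. Results of some genes that these rules name are not reported here.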

Additional observations from a re-analysis of the deposited data

Results flagged for a closer look

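In the groups of 4 libraries that share diet, age, sex and tissue (12 groups, 7 library measures, 84 checks), a library stood apart 18 times by Dixon's criterion, its gap to the nearest other library divided by the group's range lying above the 95% critical value for 4. Chance gives about 1 in 20 where values are normally distributed. The summed levels were not on a log scale, and the 7 measures share libraries. The 18 of 84 can therefore not be set against that rate. The values below are the gap divided by the range.

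For skeletal muscle markers 5 brown fat libraries were highest: high-fat animals 517 (0.988), 281 (0.994) and 537 (0.947) and low-fat animals 535 (0.846) and 483 (0.862). The summed levels of animals 535 and 483 were only 2419 and 2085, against 10223 for animal 537, the lowest of the high-fat animals named. Animal 349, whose muscle level was also high, was in a group of 3 and was not checked. For macrophage markers these were the low-fat brown fat of animal 524 (0.935), the low-fat white fat of animal 482 (0.861) and, as the lowest of its group, the high-fat white fat of animal 510 (0.932). For interferon response genes they were the low-fat brown fat of animal 524 (0.932), the high-fat brown fat of animal 619 (0.861) and the high-fat white fat of animal 509 (0.855). Antigen presentation genes were high in the low-fat brown fat of animal 524 (0.935), and red blood cell markers in the high-fat white fat of animal 520 (0.986). B and plasma cell markers were high in brown fat of animals 517 (0.942), 537 (0.835) and 524 (0.873) and in white fat of animals 613 (0.9) and 342 (0.898).

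The interaction of Myo10 differed between the sexes, with a male minus female difference of -0.78. The brown fat of animal 350, which the rule leaves out, had summed skeletal muscle markers of 30871, above every low-fat brown fat library that was used.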

How the results depend on the processing

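The number of genes past the interaction threshold (1450) fell to 728 with all 32 LG/J animals, and the count for white fat (1585) to 631. Fitted alone, females gave 179, males 136, 20 weeks 1 and 30 weeks 134. Without the replicate block, that is without pairing the depots by number, it was 800; with the block as an estimated correlation (0.146) it was 1391. Upper quartile scaling gave 0 for the difference by sex. Leaving out 1 animal at a time gave 1041 to 1904 for the interaction, 560 to 1284 for brown fat, 864 to 3126 for white fat, 1 to 2 by sex and 0 to 0 by age. Leaving out animals 524 and 537 together, an alternative added after seeing the data, gave 1847 for the interaction, 3323 in white fat and 6 by sex. Why these counts moved was not tested beyond what the smaller or larger number of animals brings. The other scalings, pseudocounts, filter and moderations kept the interaction count within 1.5 times.

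The sign turned only for genes that had not passed: Cidea (-0.24 in males alone), Col1a1 (-0.0896 with all 32 animals, -0.38 in males, -0.0277 at 30 weeks), Fasn (0.14 in females), Myo10 (-0.28 in males) and Ucp1 (0.58 in females, 0.0872 at 30 weeks). With 1 animal left out the interaction of Col1a1 ran from -0.0102 to 0.14 and that of Ucp1 from -0.40 to 0.14. Depth in reads is unknown, and low genes carry the largest errors.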

Other observations

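The remaining lists had at most 5 members each past the interaction threshold, which 11.8% of all genes passed (5.9% in each direction). In several of these short lists the share was above that of all genes. Creatine and calcium cycling genes had 2 positive and 1 negative of 7. With 1 animal left out at a time these were 2 to 3 and 0 to 1. Adipokine and adrenergic receptors had 4 positive and 1 negative of 17, among them Ffar4 and Fgfr1 (0.41), and insulin signalling had 3 positive of 21. Circadian clock genes had 2 positive of 14, Hlf among them at 0.72, and nerve and Schwann cell markers 1 positive and 2 negative of 5. With 1 animal left out at a time insulin signalling had 1 to 4 positive, the clock 1 to 3 positive and the nerve markers 0 to 2 negative. Glycolysis and glucose uptake had 2 positive and 1 negative of 20, with the brain isoform of aldolase, Aldoc, at -1.24. Brown adipose secreted factors had 2 positive and 2 negative of 11, with the growth factor Igf1 at -0.76 and Vegfa at 0.84. Red blood cell markers had none of 4 past the threshold at a median of 1.15; without animal 537 all 4 were positive past it (median 1.48), and with each of the other animals left out none was. Dendritic cell and antigen presentation genes had none of 7 at a median of -0.71, and 1 without animal 339, 482, 524, 537 or 690.

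Genes missing from 1 of the 4 tables could not be tested. In both white fat tables and the low-fat but not the high-fat brown fat table there were 217 genes, Mmp12 and Tnf among them, and 50 in the high-fat but not the low-fat brown fat table, Gldc and Prlr among them. Among genes in both brown fat tables, 55 were in the low-fat but not the high-fat white fat table. Another 12 of them were in the high-fat but not the low-fat white fat table. That a gene is missing from a table does not show that its RNA was absent.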
